A study of Mus musculus with 4 samples.

Results

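The genes described here are 9 markers of astrocytes and of Bergmann glia, the radial astrocytes of the cerebellum: Aqp4, Sparcl1, Slc1a2, Slc1a3, Aldh1l1, Apoe, S100b, Gja1 and Glul. They were taken as all probe sets of an Affymetrix mouse array whose single annotated gene symbol is one of these names. This gave 28 of 34945 probe sets with 1 symbol, and 9 of 18193 genes. The probe sets were read on 4 arrays, each holding RNA from 1 kind of mouse cell. The first array held embryonic stem (ES) cells before differentiation, the next granule cells of the cerebellum from postnatal day 6, and the other two Sox1-sorted neural stem cells and cells sorted for HB9-GFP, a green fluorescent reporter of the motor neuron factor HB9. Per the labels, the reporter ES line was kept with leukemia inhibitory factor on a feeder layer of mitomycin C-treated fibroblasts from mouse embryos. Their differentiation medium held 0.1 uM retinoic acid, sonic hedgehog and the hedgehog pathway agonist purmorphamine at 0.2 uM from day 5 to day 9, and the sort was on day 8, before the stated last day of the factors. The same protocol text stands beside all 4 samples, and it does not say how the Sox1 or granule cells were prepared. With 1 array per kind of cell there was no replicate, so no difference below has an error or a p-value, and each is a difference between these arrays.

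Astrocytes clear glutamate and potassium from the space around synapses, move water at the vessel wall, supply lipids to neurons and are joined into networks by gap junctions. Bergmann glia do this along Purkinje cell dendrites, and their fibres guide granule neurons inward during the first postnatal weeks. Several of the genes that serve these tasks are also used by other cells. Connexin 43 and glutamine synthetase are made by many dividing cells, and apolipoprotein E is made by macrophages and fibroblast-like cells as well as by astrocytes.

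Signals are scaled linear intensities. A gene was represented by the probe set with the highest mean log2 signal, and its other probe sets are given beside it. The low level, the mean of the arrays' median log2 signals, was a signal of 78.8, and lower values were set to it before differences were taken. A signal of 157.5, 1 log2 unit above the low level, counted as detected. A gene was called higher or lower where its difference reached 2 log2 units (4-fold) and the brighter array had a detected signal. Folds against a signal under the low level are lower bounds. For a dimmer signal above the low level but not detected, both signals stand without a fold.

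All 9 markers were detected on the granule array, 5 on the ES array, 5 on the HB9-GFP+-labelled array and 4 on the Sox1 array. Of all genes measured, 52.3% were detected on the granule array, 51.8% on the ES array, 51.3% on the HB9-GFP+-labelled array and 51.5% on the Sox1 array. The median signal of the 9 markers was 5027.4 on the granule array, and 182 for ES, 171.2 for the HB9-GFP+-labelled and 118.5 for Sox1 cells. Against the ES array, 7 of 9 markers were called higher on the granule array and 0 lower, while 6.83% of all genes were called higher and 4.99% lower. Against the Sox1 array, 7 were higher and 0 lower, beside 3.66% and 2.09% of all genes. Against the HB9-GFP+-labelled array, 6 were higher and 0 lower, beside 7.41% and 5.53% of all genes. These 3 comparisons share the granule array. Of all genes called in them, 57.8%, 63.6% and 57.3% were on the higher side, and 76.3%, 76.8% and 79.8% when arrays were centred on 8 reference genes, with the marker counts as given. The median log2 difference of the 9 markers was 4.09, 3.75 and 4.11 in the same order, where the genes detected on either array of the pair had medians of -0.09, -0.07 and -0.13.

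Among the remaining arrays few markers were called. On the Sox1 array against the ES array, 0 of 9 were higher and 1 was lower, Aldh1l1, while 3.59% of all genes were higher and 3.02% lower. On the HB9-GFP+-labelled array against the ES array, 1 was higher, Apoe, and 0 lower, beside 1.11% and 0.813% of all genes. Against the Sox1 array, 1 marker was higher on the HB9-GFP+-labelled array, again Apoe, and 0 lower, beside 3.22% and 3.97% of all genes. On the granule array 6 markers had signals at least 4-fold above each of the other 3 arrays, namely Aqp4, Sparcl1, Slc1a2, Slc1a3, Aldh1l1 and S100b, where 2.72% of all genes did. No marker stood apart in this way on the Sox1, ES or HB9-GFP+ labelled arrays. The 3 remaining markers had patterns of their own. Gja1 was lowest on the granule array, Glul was within 1.7-fold across the arrays, and Apoe was high on both the granule array and the HB9-GFP+-labelled array.

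**Figure D1:**
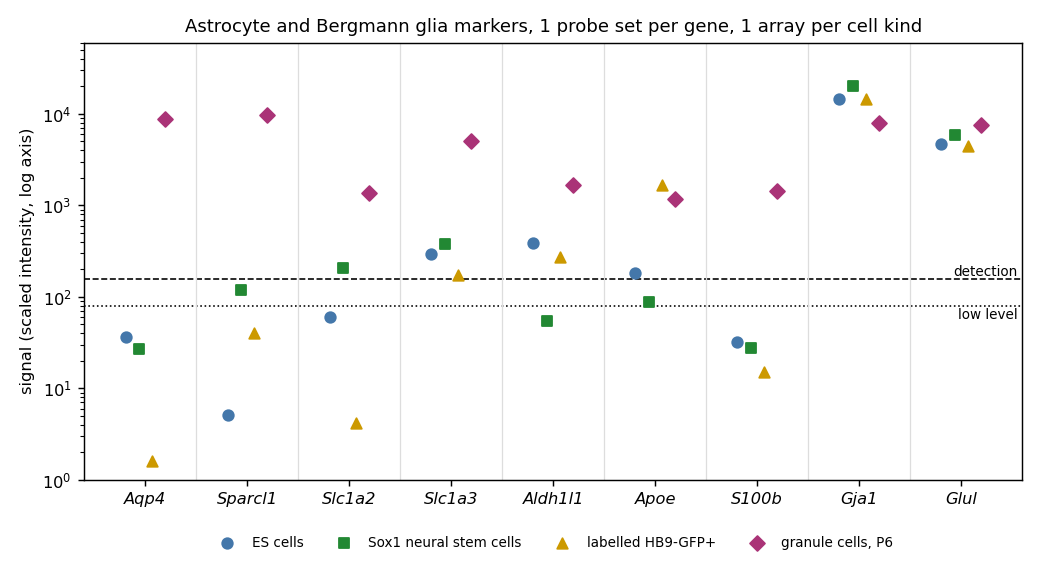
Signal of each of the 9 markers on a log axis, 1 probe set per gene and 1 array per kind of cell, with the low level (dotted, 78.8) and the detection level (dashed, 157.5). The granule array is the highest point for 7 genes, and for Aqp4, Sparcl1 and S100b it is the only point above the detection level. The Gja1 and Glul points of all 4 arrays lie far above detection.

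All 12 of 12 pluripotency genes were detected on the HB9-GFP+-labelled array and on the ES array, against 8 for Sox1 and 1 for granule cells. The probe set of Mnx1, which encodes HB9, was dark on all 4 arrays, at 15.9 on the array so labelled. By these genes the profile of that array goes against its label, and the word labelled is kept in its name throughout. Of 13 oligodendrocyte lineage genes, 2 were called higher and 0 lower on it than on the ES array. They were Olig1, at 619.7 against 61.9, and Olig2, at 320.6 against 0.9. Sox1 was at 2262.1 on the Sox1 array and between 175.6 and 437.7 on the others by its brighter probe set. The ratio of 3' to 5' signal of the actin control was 2.29 on the granule array and 2.77 to 5.08 on the others, and the Gapdh control ranked the granule array differently, at 2.7 against 1.37 to 3.68. The part of RNA quality in the differences was not tested.

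The upstream sequences of 4 markers are shown because their genes include 2 that were at least 4-fold higher on the granule array than on each other (Slc1a3 and S100b) and 2 that were not called in any comparison (Gja1 and Glul). Such windows were taken from RefSeq's table for GRCm38.p6 for 7 of the 9 markers, without Aqp4 and Sparcl1. The choice of marker windows left out a chromosome that the set of all windows kept. A marker without a window here may therefore still have one in RefSeq's table. Each window is the 250 bases before the annotated start, on the gene's own strand from 5′ to 3′, with CpG dinucleotides in capitals.

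Slc1a3, chr15:8710808-8711057 (-): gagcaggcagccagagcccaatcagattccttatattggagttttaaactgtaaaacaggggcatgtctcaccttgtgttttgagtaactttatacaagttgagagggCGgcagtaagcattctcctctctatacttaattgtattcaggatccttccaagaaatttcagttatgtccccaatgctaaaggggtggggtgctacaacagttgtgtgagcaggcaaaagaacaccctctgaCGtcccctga

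S100b, chr10:76253586-76253835 (+): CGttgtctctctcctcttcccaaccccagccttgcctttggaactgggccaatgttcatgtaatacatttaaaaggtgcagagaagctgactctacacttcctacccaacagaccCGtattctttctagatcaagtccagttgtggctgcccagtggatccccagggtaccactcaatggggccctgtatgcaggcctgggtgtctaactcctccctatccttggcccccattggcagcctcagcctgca

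Gja1, chr10:56377050-56377299 (+): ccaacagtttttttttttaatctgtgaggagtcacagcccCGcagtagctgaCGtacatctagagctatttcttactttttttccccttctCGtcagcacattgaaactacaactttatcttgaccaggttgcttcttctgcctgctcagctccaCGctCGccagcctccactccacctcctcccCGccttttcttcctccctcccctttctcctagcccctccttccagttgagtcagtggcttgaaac

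Glul, chr1:153899679-153899928 (+): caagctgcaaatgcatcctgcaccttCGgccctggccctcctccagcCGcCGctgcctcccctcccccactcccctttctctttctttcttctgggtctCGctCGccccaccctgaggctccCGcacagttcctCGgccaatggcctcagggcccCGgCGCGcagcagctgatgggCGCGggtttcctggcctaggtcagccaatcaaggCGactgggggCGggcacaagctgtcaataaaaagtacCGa

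The Slc1a3 and S100b windows held 2 CpG dinucleotides each, a number that 81.2% of 32851 annotated windows of this length reach or pass. Slc1a2, also set apart on the granule array, had 1 in the 250 bases before the start RefSeq lists. Gja1 held 6, the median of all windows, and Glul held 15, reached by 27.3% of them. Aldh1l1, set apart on the granule array, held 7, and the 3 annotated starts of Apoe had 8 to 10. A short motif of the nuclear factor I proteins, TTGGCA on either strand, occurred in the S100b window, ending 13 bases before the start, and before 1 of the 3 Apoe starts, while 12.3% of all windows held it. These counts describe the letters in the windows and no binding was measured.

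Aqp4 and Sparcl1 showed the widest separation between the granule array and the rest. Aqp4 encodes the water channel of astrocyte endfeet. Its signal was 8741.8 on the granule array, 36.6 for ES cells, 26.8 for Sox1 cells and 1.6 on the HB9-GFP+-labelled array, so it was at least 111-fold higher on the granule array than on each other array. Its 3 probe sets were all brightest on the granule array, the others at 832.9 and 152.3 there, the last just under detection and none above 75.5 elsewhere. Sparcl1 encodes hevin, a secreted matrix protein that astrocytes use to promote synapses. It had 1 probe set, at 9634.3 on the granule array, 118.5 on the Sox1 array, 40.1 on the HB9-GFP+-labelled array and 5.1 on the ES array. It was at least 122-fold higher on the granule array than on the ES array and on the HB9-GFP+-labelled array, and undetected on the Sox1 array.

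Most genes in the families of these 2 proteins did not share the pattern. Of 10 other aquaporin genes, 0 were detected on the granule array, where their highest signal was 130.8. Aqp3, a channel for water and glycerol, was at 2536.5 on the ES array and 2375.4 on the HB9-GFP+-labelled array, against 45.7 on the granule array and 53 on the Sox1 array. Aqp5 was at 317.7 on the ES array and 28.7 on the granule array. Of 7 genes related to Sparcl1, 6 were detected on the granule array. One of them was higher there than on each other array, Spock3, a proteoglycan gene, at 492.3 against at most 40.3. Spock2 was at 626.9 on the granule array and 163.9 to 223 elsewhere, short of 4-fold. Spock1 was detected on 3 arrays, at 229.8 to 320.4, and was at 35.7 on the HB9-GFP+-labelled array.

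Slc1a3 and Slc1a2 encode GLAST and GLT-1, the transporters that take glutamate into astrocytes. GLAST is the main one of Bergmann glia and appears early, whereas GLT-1 grows more abundant as astrocytes mature. Slc1a3 was at 5027.4 on the granule array, 374 on the Sox1 array, 295.5 on the ES array and 171.2 on the HB9-GFP+-labelled array. It was thus detected on all 4 arrays, and was 13.4-fold higher on the granule array than on the Sox1 array, 17.0-fold higher than on the ES array and 29.4-fold higher than on the HB9-GFP+-labelled array. The 3 brightest of its 6 probe sets gave log2 differences of 4.09, 4.28 and 3.80 against the ES array, of 3.75, 3.53 and 3.61 against the Sox1 array and of 4.88, 4.30 and 4.02 against the HB9-GFP+-labelled array, so the fold given against the last is the highest of the 3. A further probe set was detected on the granule array alone, at 165.3, and 2 were detected on none.

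Slc1a2 was at 1358.7 on the granule array, 205 on the Sox1 array, 60.5 on the ES array and 4.2 on the HB9-GFP+-labelled array. It was 6.63-fold higher on the granule array than on the Sox1 array and at least 17.3-fold higher than on either remaining array. On the Sox1 array it was just above detection, 1.38 log2 units over the low level and so not called against the ES array. The call rests on 1 of 5 probe sets. A second was detected on the granule array alone, at 275.6 against at most 47.3, and the other 3 were dark on every array, with signals up to 37.8. With the mean of all 5 in place of the brightest, Slc1a2 had a difference of 0 and no call in any comparison.

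Glul encodes glutamine synthetase, which turns the captured glutamate into glutamine. Its brighter probe set gave 7565.5 on the granule array, 5883.8 on the Sox1 array, 4677.6 on the ES array and 4443.5 on the HB9-GFP+-labelled array. The span of 0.77 log2 units is close to the spread among probe sets of one gene, whose pooled SD was 0.62 to 0.85 log2 units in the comparisons with the granule array. The order was not shared by the other Glul probe set, which read 584.8 on the HB9-GFP+-labelled array, 355.3 for ES, 327.7 for granule and 213.9 for Sox1 cells. With the mean of both probe sets the difference between the granule and the HB9-GFP+-labelled array changed sign, to -0.03 log2 units, and it was 1.46 with centring on reference genes. Its signal was detected by both probe sets on all 4 arrays.

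Of 15 other measured genes of glutamate and glutamine handling, 10 were detected on the granule array and 1 was higher there than on each other array. That gene was Slc17a6, a vesicular glutamate transporter of neurons, at 1972.2 against at most 85.8. The transaminase gene Got1 was lower on the granule array, at 410.5, than on the ES array at 3474.1 and the HB9-GFP+-labelled array at 4089.2. Slc1a5, a neutral amino acid transporter gene of the same family as GLAST, was at 99.4 on the granule array and 722.6 on the HB9-GFP+-labelled array. Slc1a6, the transporter of Purkinje cells, and Slc1a7 were detected on no array, with highest signals of 36.4 and 56.8. The neutral amino acid transporter gene Slc38a1, which carries glutamine into neurons, was at 8062.4 on the granule array and 8175.2 on the Sox1 array, against 2970 and 2774.1 on the ES and HB9-GFP+ labelled arrays.

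S100b encodes a calcium-binding protein of astrocytes, Bergmann glia and some oligodendrocyte lineage cells. It was at 1422.2 on the granule array, 32.1 for ES cells, 27.7 for Sox1 cells and 15.1 on the HB9-GFP+-labelled array, and thus at least 18.1-fold higher on the granule array than on each other. Its second probe set repeated the pattern, at 486.2 on the granule array and 2.9 to 7 elsewhere. Of 13 other S100 genes and partners, 2 were also higher on the granule array than on each other array, S100a16 at 1393.6 against at most 168.2 and S100a13 at 880.8 against at most 186.4. S100a4 and S100a6 showed another pattern. S100a4, which fibroblasts express, was at 1710.3 on the HB9-GFP+-labelled array and at most 44.1 on the others, and S100a6 was at 1966.2 there against 129.4 to 456.4.

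Aldh1l1 encodes the cytosolic formyltetrahydrofolate dehydrogenase, a folate enzyme used as a marker of the whole astrocyte population. Its signal was 1670.5 on the granule array, 385.4 on the ES array, 269.9 on the HB9-GFP+-labelled array and 54.2 on the Sox1 array. It was 4.33-fold higher on the granule array than on the ES array, 6.19-fold higher than on the HB9-GFP+-labelled array and at least 21.2-fold higher than on the Sox1 array. The margin over the ES array is thin, and the difference of 2.12 log2 units was 1.98 with log2(value + 50). The Sox1 array was the dimmest of the 4, at least 4.89-fold below the ES array. The second probe set was undetected on all arrays, with 53.6 on the granule array as its highest value, and with the mean of both no comparison of Aldh1l1 reached 4-fold.

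Other folate enzymes did not follow Aldh1l1. Of 10 measured, 2 were higher and 3 lower on the granule array than on the ES array, and 1 higher and 4 lower than on the HB9-GFP+-labelled array. Mthfd1, the cytosolic enzyme upstream of Aldh1l1 in the folate cycle, was at 1953.7 on the granule array, 5292.1 on the Sox1 array, 11601.1 on the HB9-GFP+-labelled array and 12155.7 on the ES array. Shmt1, which loads serine carbon onto folate, was at 654.5 on the granule array and 2597.1 to 4656 elsewhere. Mthfd2l, a mitochondrial enzyme, was instead high on the granule and Sox1 arrays, at 2680.8 and 2570.2, against 253.7 on the ES array and 377.8 on the HB9-GFP+-labelled array. Aldh1l2, the mitochondrial relative of Aldh1l1, was at 764.3 on the granule array and 187 to 213.2 on the others, and was called only against the ES array.

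Gja1 encodes connexin 43, the main gap junction protein of astrocytes and also of ES cells, radial glia and fibroblasts. Its brightest probe set gave 20117.7 on the Sox1 array, 14483.4 on the HB9-GFP+-labelled array, 14463.1 on the ES array and 8033.9 on the granule array. The granule array was 2.50-fold below the Sox1 array and 1.80-fold below each of the others, which is short of a call. The 4 brightest of 6 probe sets all put the Sox1 array first and the granule array last, with log2 differences between granule and Sox1 of -1.32, -1.58, -1.57 and -1.61. Another put the granule array first, at 228.4 against 101.5 to 166.8, and the dimmest was detected on no array. The representatives of Gja1 and of Slc1a3 are of a probe set type that can bind related transcripts, and each gene has a bright probe set without that mark giving the same direction. The difference from the ES array shrank from -0.85 to -0.30 log2 units when arrays were centred on reference genes, without a change of sign. Of 14 other measured gap junction genes, 5 were detected on the granule array and 0 were called higher there in any comparison. Gjb5 was at 326.5 on the ES array and 750.6 on the HB9-GFP+-labelled array, against 2.8 on the granule array. Panx1, a channel protein gene related to the innexins, was at 1070.3 on the granule array and 445.1 to 939.8 on the others, and Gjd2, a connexin gene of neurons, was detected on the granule array alone, at 187. Gjb6, a connexin gene of astrocytes, was also detected there alone, at 163.2, just above the detection level.

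Apoe encodes the lipid carrier that astrocytes secrete in brain. It was the marker that separated the HB9-GFP+-labelled array from the ES array. Its signal was 1689.8 on the HB9-GFP+-labelled array, 1170 on the granule array, 182 on the ES array and 87.3 on the Sox1 array, by 1 probe set. It was 9.28-fold higher on the HB9-GFP+-labelled array than on the ES array and 6.43-fold higher on the granule array than on the ES array, and the first 2 arrays differed by 1.44-fold. On the Sox1 array it was undetected. The other 8 markers were not called between the HB9-GFP+-labelled array and the ES array. Of 14 fibroblast genes, 14 were detected on the HB9-GFP+-labelled array, 11 on the granule array, 5 on the ES array and 5 on the Sox1 array. Their summed signals were 45327.3, 11351.6, 13159.6 and 9423.4, and the lowest single signal on the HB9-GFP+-labelled array was 461.4. Against the ES array 9 of the 14 were higher on the HB9-GFP+-labelled array and 0 lower, among them the matrix genes Mgp at 6205.5 against 70.7, Col3a1 at 6165.2 against 20.6 and Dcn at 3375.9 against 24. The brightest on it were not called. Fn1, which encodes fibronectin, was at 10804.8 on that array against 8058.9 on the ES array, and Sparc was at 7242.1 against 3395.3. Of 13 microglia genes, 11 were detected on the granule array and 2 on the HB9-GFP+-labelled array. The part of fibroblasts or microglia in the Apoe signal was not tested.

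Of 14 other measured lipoprotein genes, 1 was higher and 1 lower on the granule array than on the ES array. The higher one was Vldlr, a receptor for lipoproteins and reelin, at 1979.4 against 376.6, and the lower one was Apoc1, the neighbour of Apoe in the genome, at 93.2 against 433.5. Apoc1 was at 847.9 on the HB9-GFP+-labelled array and 60.3 on the Sox1 array, so it was undetected on the granule array, where Apoe was high. Against the Sox1 array, 4 lipoprotein genes were higher on the granule array. They were Apod (579.4 against 74.2), Clu (1215.2 against 178.8) and the sterol exporter genes Abca1 (3024.8 against 703.1) and Abcg1 (456.7 against 105.1).

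**Figure D2:**
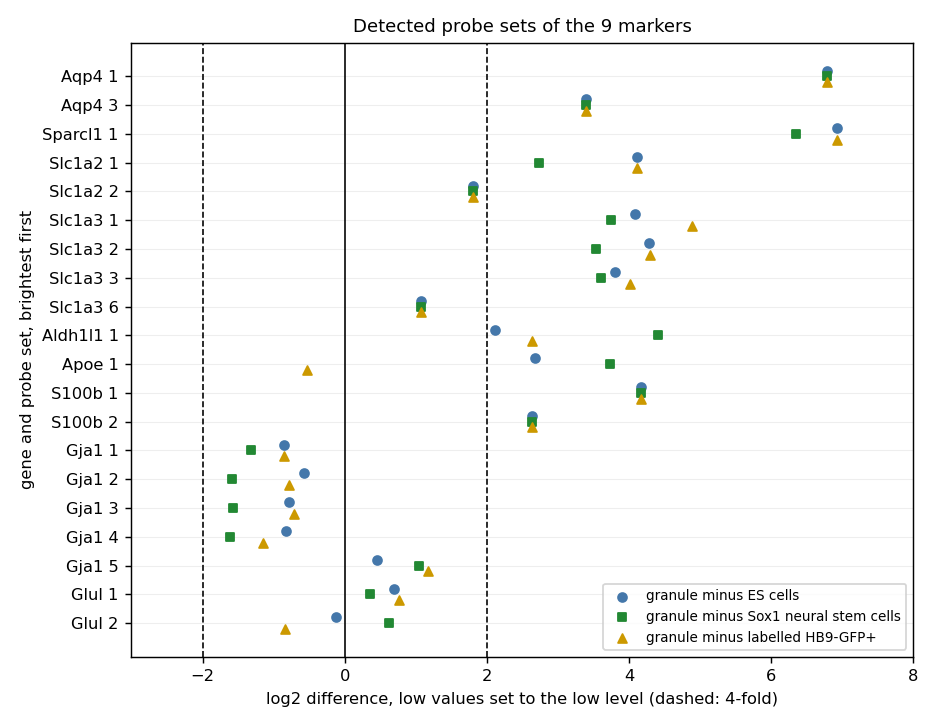
Log2 difference of the granule array from each of the other 3 arrays for the 20 marker probe sets detected on at least 1 array, numbered within each gene from the brightest, with dashed lines at 4-fold. Probe sets detected on the granule array alone can only lie right of 0. The points of Gja1 lie left of 0 except for its probe set 5. Points against values set to the low level are lower bounds and coincide.

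Across the 28 probe sets of the 9 markers, 20 were detected on at least 1 array and 8 on none. Of 27 other measured astrocyte genes, 24 were detected on the granule array, 10 each on the ES and Sox1 arrays and 8 on the HB9-GFP+-labelled array. On the granule array 12 were higher and 0 lower than on the ES array, 13 and 0 against the Sox1 array, and 10 and 0 against the HB9-GFP+-labelled array. Of the 27, 8 were higher there than on each other array. Gfap, the intermediate filament of astrocytes, was at 2224.6 on the granule array and at most 73.8 elsewhere. Bcan, a matrix proteoglycan gene, was at 3283.5 against at most 137.1, and Ttyh1, a membrane protein gene, at 3833.6 against at most 331.8. Not all of the list went this way. Mfge8 was at 953.3 on the granule array against 3643.9 on the ES array and 3061.5 on the HB9-GFP+-labelled array, short of a call. Fgfr3 was brightest on the Sox1 array, at 1324.6 against 384.5 on the granule array, also not called. Of 12 genes linked to Bergmann glia, 10 were detected on the granule array. On it 7 were higher and 2 lower than on the ES array, 5 higher and 0 lower than on the Sox1 array, and 7 higher and 3 lower than on the HB9-GFP+-labelled array. The lower ones were the transcription factor gene Etv5, at 426.4 against 2791.3 and 4424.5 on the ES and HB9-GFP+-labelled arrays, A2m, a protease inhibitor gene, at 109.5 against 2289 and 3326.9, and, against the latter array alone, Etv4 at 23.8 against 703.6. Higher on the granule array than on each other array were 3 genes, Gdf10, a secreted factor gene, at 1796.3 against at most 105.8, Septin4 at 2424.4 against at most 161.9, and Timp4 at 2345.4 against at most 372.7.

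Of 17 genes of radial glia, 8 were higher and 0 lower on the Sox1 array than on the ES array, and 9 were not called. Of the 9 markers, 0 were higher there, and the difference between the lists was not tested. Of the same 17, 12 were higher and 1 lower on the granule array than on the ES array. Against the Sox1 array, 6 were higher on the granule array and 2 lower. The lower ones were Hes1, at 69.9 against 510.2, and Sox2, at 3410.1 against 16172.6. Fabp7, the brain fatty acid binding protein, was at 17695 on the granule array and 21466 on the Sox1 array, against 43.7 and 47.9 on the ES and HB9-GFP+ labelled arrays. Ptn, a secreted growth factor gene, was at 17904.8 and 15732 on the granule and Sox1 arrays, and Ednrb, an endothelin receptor gene, at 6042.8 and 4378.2. Ptprz1, a receptor phosphatase gene, was at 4109 and 1199.8. The nuclear factor I genes, whose products drive the start of gliogenesis and also act in granule neurons, were far lower on the Sox1 array than on the granule array. Nfia was at 14141.8 on the granule array against 274.4 on the Sox1 array, Nfib at 14138.2 against 104.7, and Nfix at 12514 against 5.3. Of the radial glia genes, 3 (Bcan, Sox9 and Ttyh1) are also among the astrocyte genes, and 4 are among those of Bergmann glia, so these counts overlap.

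**Figure D3:**
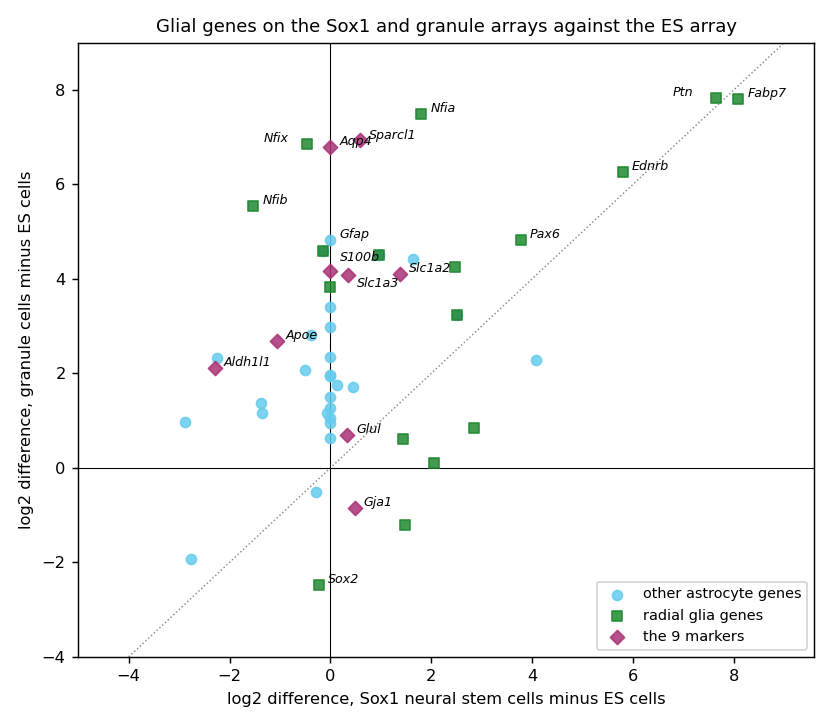
Log2 difference from the ES array on the Sox1 array (x axis) and on the granule array (y axis), 1 point per gene, with values under the low level set to it and equality dotted. Aqp4, Sparcl1, S100b, Slc1a3 and Gfap lie below 1 on the x axis and above 4 on the y axis. Fabp7, Ptn and Ednrb lie near the dotted line on the upper right, and Nfia, Nfib and Nfix lie far above it.

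The granule array also held markers of other cells of the cerebellum. Of 14 granule neuron genes, 10 were detected there, among them Zic1 at 17613.9 and Neurod1 at 16889, both transcription factor genes of the granule lineage. Zic1 was also at 8468.3 on the Sox1 array, with no call between the 2 arrays. Neurod1 was detected on all 4 arrays, at 346.6 to 752.6 on the others. Of 10 genes of Purkinje cells and interneurons, 8 were detected on the granule array, including Pcp4 at 3719.9 and Calb1, a calcium buffer gene, at 2703.5. Of 13 oligodendrocyte lineage genes, 11 were detected, with the myelin enzyme genes Cnp at 8706.1 and Ugt8a at 4077.2. Both were detected on every array, Cnp at 854.3 to 2630.3 and Ugt8a at 237.8 to 482.4 on the others, and Cnp was not called against the ES array. Of 13 microglia genes, 11 were detected, with the colony stimulating factor receptor gene Csf1r at 4072.5 and the protease gene Ctss at 2108. Against the HB9-GFP+-labelled array 7 of the 13 were higher on the granule array and 1 lower, Laptm5. It was at 843.1 on the granule array, against 3385.8 on the HB9-GFP+-labelled array and 1619.3 on the ES array. Vessel genes gave 1 of 10, Slco1a4 at 227.7, with Rgs5 just under detection at 157.3. Choroid plexus and ependyma genes gave 0 of 6, with Ttr at 141.5. Signals of one gene cannot be set against those of another on these arrays, so the share of each cell type cannot be read from them. In pooled cells, more cells of a type and more RNA per cell cannot be told apart either. The part of each cell type in the 9 marker signals was not tested.

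Summed signals are set side by side only between arrays, for the same genes. For the 9 markers the sum was 44624.3 on the granule array and 20137.9 to 26895 on the others. Gja1 and Glul, called in no comparison, made up most of the lower sums. They were at 14463.1 and 4677.6 on the ES array and at 20117.7 and 5883.8 on the Sox1 array. For the other astrocyte genes the sum was 35777.4 against 8270.6 to 11679.9. The oligodendrocyte genes summed to 26595.8 on the granule array against 2301.8 to 4243.5, the microglia genes to 10703.2 against 403.3 to 3857.6, and the Purkinje cell and interneuron genes to 15455.2 against 648.4 to 1436.8. The vessel genes summed to 746.2 in granule cells, 1104 in ES cells, 822.4 on the HB9-GFP+-labelled array and 251.8 in Sox1 cells.

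**Figure D4:**
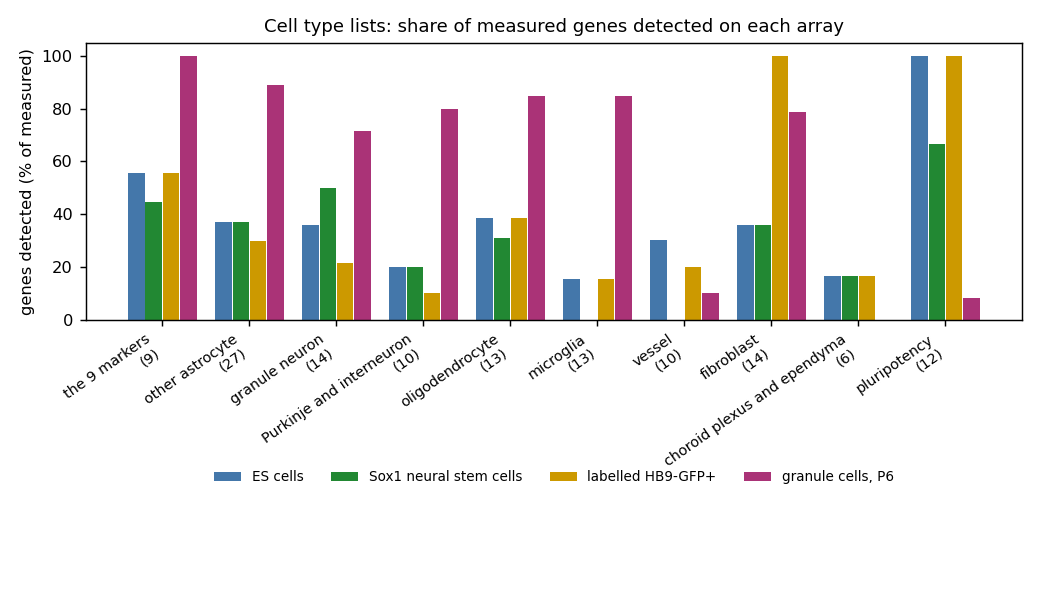
Percentage of the measured genes of each list detected on each of the 4 arrays, with the number of measured genes in brackets. On the granule array the bars of the 9 markers, other astrocyte, oligodendrocyte, microglia and Purkinje cell genes are all above those of the other 3 arrays, while the vessel, choroid plexus and pluripotency bars are not.

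For each marker the 2 genes with the most similar pattern over the 4 arrays were sought among 11562 other detected genes. Likeness was the root mean square difference of log2 values after each gene was centred on its own mean, and values under the low level were set to it, so that genes dark on 3 arrays are matched mostly by their granule signal. Slc1a3 was closest to Zbtb20 (0.12 log2 units) and Septin4 (0.15), the first a zinc finger gene at 3448 on the granule array and 111.5 to 209.7 elsewhere. Slc1a2 was closest to the synaptic vesicle gene Syt1 (0.06) and the splicing factor gene Srrm4 (0.08), both of which neurons express. Syt1 was at 1501.3 on the granule array and 212.3 on the Sox1 array, and undetected on the others. S100b was closest to Myt1l, a neuronal zinc finger gene (0.00), and Cxcl2 (0.01), and Aqp4 to Sphkap (0.38) and Ppp1r14c (0.51). Sparcl1 was closest to Ppp1r14c and Cadps2, both at 0.39, the second an exocytosis gene of granule neurons at 10005 on the granule array. Aldh1l1 was closest to Cnp (0.38) and Cyp7b1 (0.41). Apoe was closest to the cytokine gene Il33 (0.40), at 1204.4 on the HB9-GFP+-labelled array and 647 on the granule array, and to Gm6958 (0.43). Gja1 was closest to Sub1 (0.03) and Acvr2b (0.06), and Glul to Stam (0.03) and Rab6a (0.04). With 4 arrays such likeness is a description.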

How the data were processed

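RNA of 4 kinds of cell was measured on 1 Affymetrix array each. The deposited table holds intensities on a linear scale. The submitters' processing notes name GCRMA, with no version or role, but on each array the mean over probe sets, trimmed by 2% at each end, is 500, the form of a scaled linear signal, so the step that made them is uncertain. No detection calls were used. Gene symbols came from the platform annotation, and 28 of 28 marker probe sets matched their RefSeq gene. With Python 3.11.15 and pandas 2.3.3, genes were represented, floored and called as stated above; no test exists with 1 array per group. Of 12 reference genes listed, 8 had a single-symbol probe set and were used for centring. The members and gene lists were chosen with earlier results of these data known. Genes to be named were the markers, the 3 widest-ranging genes of each related list, the 2 brightest of each cell type list and the 2 nearest patterns per marker. Not all genes picked by this rule are given in the text. S100a13, Slc1a6, Slc1a7, Slc38a1, Aldh1l2, Vldlr, Abca1, Abcg1, Sox9, Nfib, Nfix, Gdf10, Septin4, Timp4, Etv4, Etv5, A2m, Mgp, Col3a1 and Dcn were named after their values were seen. Hes1, Sox2, Olig1, Olig2, Mfge8, Fgfr3, Laptm5 and Gjb6 were also named after their values were seen. Alternatives were quantile normalization, centring on reference genes, 2 probe set summaries, 3 treatments of low values and a 2-fold threshold.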

Additional observations from a re-analysis of the deposited data

How the results depend on the processing

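Over the 54 differences between arrays computed for the 9 markers and 8 alternative settings, no called difference changed sign. The 3 treatments of low values and the 2-fold threshold keep the order of 2 signals. They could not reverse a called difference, so the statement has content only for the other settings. Quantile normalization and centring on reference genes changed no call, nor did the mean over detected probe sets, an alternative chosen after seeing the data. With the mean over all probe sets, 7 calls of Slc1a2 and Aldh1l1 were lost and Sox1 against ES had 0 lower. Markers detected were then 8 on the granule array and 3, 3 and 2 on the ES, HB9-GFP+ labelled and Sox1 arrays. With the mean over detected probe sets, 4, 4 and 2 were detected on the ES, HB9-GFP+ labelled and Sox1 arrays. Centring on reference genes left 4 detected on the HB9-GFP+ labelled array. A low level raised by 1 log2 unit gave 0 lower for Sox1 against ES and 3 markers detected on each of the ES, HB9-GFP+ labelled and Sox1 arrays. With no low level, the HB9-GFP+-labelled array had 2 markers higher and 1 lower than the Sox1 array, and with log2(value + 50) it had 1 lower. At 2-fold, Gja1 made 1 lower for granule against Sox1, Sox1 against ES had 1 higher and 2 lower, and the HB9-GFP+-labelled array against Sox1 had 2 higher and 2 lower.

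Centring on reference genes moved the ES, granule, HB9-GFP+-labelled and Sox1 arrays by reference medians of 0.15, -0.40, 0.28 and -0.03 log2 units from their mean. It gave 1888 higher and 586 lower genes for granule against ES (1243 and 907 before), and 2178 and 552 against the HB9-GFP+-labelled array (1348 and 1006 before). With the mean over probe sets, 781, 436 and 865 genes were higher on the granule array than on the ES, Sox1 and HB9-GFP+-labelled arrays (1243, 665 and 1348 before), and 387 on the Sox1 array than on the ES array (653 before). At 2-fold, 2799 genes were higher and 2750 lower for granule against ES. For the HB9-GFP+-labelled array against ES, the share of higher calls was 57.7%, against 47.3% with centring and 67.8% with quantile normalization, and against Sox1 it was 44.8% and 32.3% with centring. The causes were not tested. The single array per kind of cell and the dark probe sets limit every value given here.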

Other observations

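One further probe set is annotated to Slc1a2 together with Gm13872 and entered no gene. Its signals of 42.7 (Sox1), 14.3 (HB9-GFP+-labelled), 13 (ES) and 9.8 (granule) all lay under the low level.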
